A study of Homo sapiens with 12 samples.

Results

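Messenger RNA levels of 32 genes of protein folding in the endoplasmic reticulum and of the unfolded protein response were followed through 12 libraries of cultured human cancer cells. The genes were chosen by name, as chaperones, disulfide isomerases, components of degradation from the endoplasmic reticulum, translocon subunits and stress sensors. The rule that lists them uses no measured value, but the list was drawn up with earlier results of these data known. All 32 were found among the 57820 gene rows of the count table, and all 32 passed the filter on low counts that left 17096 genes for testing. DERL3 passed mainly through SKOV3, where its level was 1.56 to 6.98 CPM (counts scaled to library size), against at most 0.672 CPM in any library of the other lines.

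The study used the lung cancer line A549, the ovarian cancer line SKOV3 and the breast cancer line MDA-MB-231. Each line was transduced with a lentivirus, carrying either the empty pCDH-CMV vector (control cells) or pCDH-puro-cMyc with full-length human MYC (MYC cells), so that the controls were transduced too. Puromycin selection followed, and the labels name no clones. Both genotypes of each line received either the solvent DMSO or tipifarnib, an inhibitor of farnesyltransferase, the enzyme that attaches a farnesyl lipid to proteins such as RAS and the lamins. The exposure lasted 48 h, at 10 µM tipifarnib in A549 and 20 µM in SKOV3 and MDA-MB-231. The 4 groups of genotype and treatment therefore held 3 libraries each, 1 per line, and dose and line cannot be told apart where A549 is set against the others. The question of the design was whether MYC alters the response to tipifarnib.

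Proteins that enter the secretory pathway pass through the SEC61 channel and fold in the lumen of the endoplasmic reticulum. There the HSP70-type chaperone BiP (HSPA5), the HSP90-type chaperone GRP94 (HSP90B1), the lectins calreticulin and calnexin, and protein disulfide isomerases bind the chain. When unfolded proteins accumulate, the sensors IRE1 (ERN1), ATF6 and PERK (EIF2AK3) start the unfolded protein response. IRE1 splices XBP1 mRNA, cleaved ATF6 enters the nucleus, and PERK slows translation while favouring that of ATF4. The spliced XBP1 factor and ATF6 raise transcription of chaperone and degradation genes, many of which carry an endoplasmic reticulum stress element (ERSE) upstream of their start. Secretory and fast-growing tumour cells are known to use this response. Gene counts as used here do not separate spliced from unspliced XBP1 mRNA, and they say nothing of cleavage of ATF6 or phosphorylation of PERK.

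Gene counts per library were 20481363 to 26962994. MYC itself was higher in MYC cells in 6 of 6 pairs, by 2.61 ± 0.24 on the log2 scale (adjusted p = 0.00745 in edgeR's quasi-likelihood test). Endogenous and vector transcripts share the count. With tipifarnib MYC was higher in 5 of 6 pairs but did not pass over both genotypes (0.55 ± 0.23, adjusted p = 0.151). Within MDA-MB-231 MYC rose with tipifarnib (1.20 ± 0.26, adjusted p = 0.011), from 148 to 349 CPM in control cells and 709 to 1593 CPM in MYC cells, and its part in the members' values there was not tested. Defining markers were weak for the labelled lung origin of A549, whose summed level of 7 lung epithelial markers was 0.704 to 2.23 CPM with 3 of them at 0 in all its libraries. SKOV3 had 198 to 310 CPM over 7 ovarian carcinoma markers, of which PAX8 alone gave 172.5 to 265.3 CPM. Of these 7 markers 4 reached 1 CPM in SKOV3, against 5 in A549. MDA-MB-231 had 6.32 to 9.06 CPM over 7 breast epithelial markers, 3 of them at 0. It was the lowest of the lines on the breast list, on which A549 had 21.5 to 45.9 CPM and SKOV3 27.8 to 84 CPM. In SKOV3 nearly all of that sum was ESR1 (27.57 to 83.81 CPM). Over 5 mesenchymal markers MDA-MB-231 had 1080 CPM or more, with 3 of them reaching 1 CPM, and SKOV3 had 1390 to 5620 CPM. Markers of blood and endothelial cells summed to at most 2.27 CPM in any library. The 3 libraries of a group came from 3 lines, and no label names a second culture of any line. The p-values therefore reflect nothing beyond the spread among these samples. In such bulk RNA, fewer cells of a type and less RNA per cell cannot be told apart.

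The promoters of 5 members are shown as examples. HSP90B1, CALR, SDF2L1 and DNAJB9 were called with tipifarnib over both genotypes, and HSPA5 differed between the lines. They were not picked by rank, and all 5 hold a motif marked below. PDIA4, with the smallest adjusted p of all members for tipifarnib over both genotypes, is not shown, and its window held no motif searched. Each run is the 250 bases before an annotated start in RefSeq on GRCh38.p14, 5′ to 3′ along the gene. Capitals mark the fixed letters of 3 searched motifs on either strand. These are the ERSE (CCAAT, then 9 bases of any kind, then CCACG), the ERSE-II (ATTGG, 1 base, CCACG) and the E-box CACGTG, the letters that MYC with its partner MAX is known to bind.
HSPA5, chr9:125241344-125241593, minus strand: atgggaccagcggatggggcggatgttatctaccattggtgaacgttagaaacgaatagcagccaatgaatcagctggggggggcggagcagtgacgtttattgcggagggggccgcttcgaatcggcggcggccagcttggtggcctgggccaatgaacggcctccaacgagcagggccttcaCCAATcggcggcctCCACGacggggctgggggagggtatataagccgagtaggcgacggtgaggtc
HSP90B1, chr12:103930160-103930409, plus strand: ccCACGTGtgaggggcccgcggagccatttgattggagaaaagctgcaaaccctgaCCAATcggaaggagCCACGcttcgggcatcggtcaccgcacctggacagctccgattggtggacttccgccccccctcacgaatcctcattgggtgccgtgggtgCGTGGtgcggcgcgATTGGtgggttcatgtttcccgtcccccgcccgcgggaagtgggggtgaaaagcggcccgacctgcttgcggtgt
CALR, chr19:12938359-12938608, plus strand: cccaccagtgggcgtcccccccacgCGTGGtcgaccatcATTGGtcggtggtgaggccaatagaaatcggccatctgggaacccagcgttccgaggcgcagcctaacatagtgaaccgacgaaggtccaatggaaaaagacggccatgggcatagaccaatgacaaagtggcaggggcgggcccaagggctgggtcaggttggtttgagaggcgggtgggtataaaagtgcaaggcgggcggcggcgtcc
SDF2L1, chr22:21642052-21642301, plus strand: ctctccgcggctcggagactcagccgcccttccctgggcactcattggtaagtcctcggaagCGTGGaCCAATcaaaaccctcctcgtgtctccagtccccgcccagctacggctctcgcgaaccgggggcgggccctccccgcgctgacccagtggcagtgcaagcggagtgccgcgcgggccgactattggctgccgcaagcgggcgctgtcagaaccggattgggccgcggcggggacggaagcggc
DNAJB9, chr7:108569624-108569873, plus strand: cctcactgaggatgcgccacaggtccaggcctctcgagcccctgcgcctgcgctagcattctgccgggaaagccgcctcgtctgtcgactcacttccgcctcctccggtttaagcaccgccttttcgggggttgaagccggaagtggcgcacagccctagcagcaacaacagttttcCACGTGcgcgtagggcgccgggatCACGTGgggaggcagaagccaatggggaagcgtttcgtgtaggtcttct

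Promoter windows, from 250 bases before the start to 50 after it, were matched for 29 of the 32 members, with 37 windows in all (no window was matched for DERL1, DERL3 and PDIA3). An ERSE stood in windows of 8 of these 29 genes, in 10 of the 37 windows or 27% of them, against 0.0769% of all 35116 windows. The 8 were HSPA5, HSP90B1, CALR, CANX, PDIA6, CRELD2, ERO1B and XBP1. HSP90B1 held 2 of them, and CANX held 1 that lies in the windows of 3 neighbouring starts. An ERSE-II stood in HYOU1 and SDF2L1, against 0.0541% of all windows. The letters TGACGTGG, the core of the element bound by XBP1 and ATF6 (UPRE), stood in HYOU1, where they overlap the ERSE-II, and in TXNDC5, against 0.729% of all windows. The E-box stood in CANX, HSP90B1 and DNAJB9 (8.11% of the members' windows, near the 7.26% of all windows), and the ATF4 element TTGCATCA in none of the 29, against 0.866% of all windows. A match describes letters, not bound protein, and a missing match says only that the letters are not in this window.

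**Figure D1:**
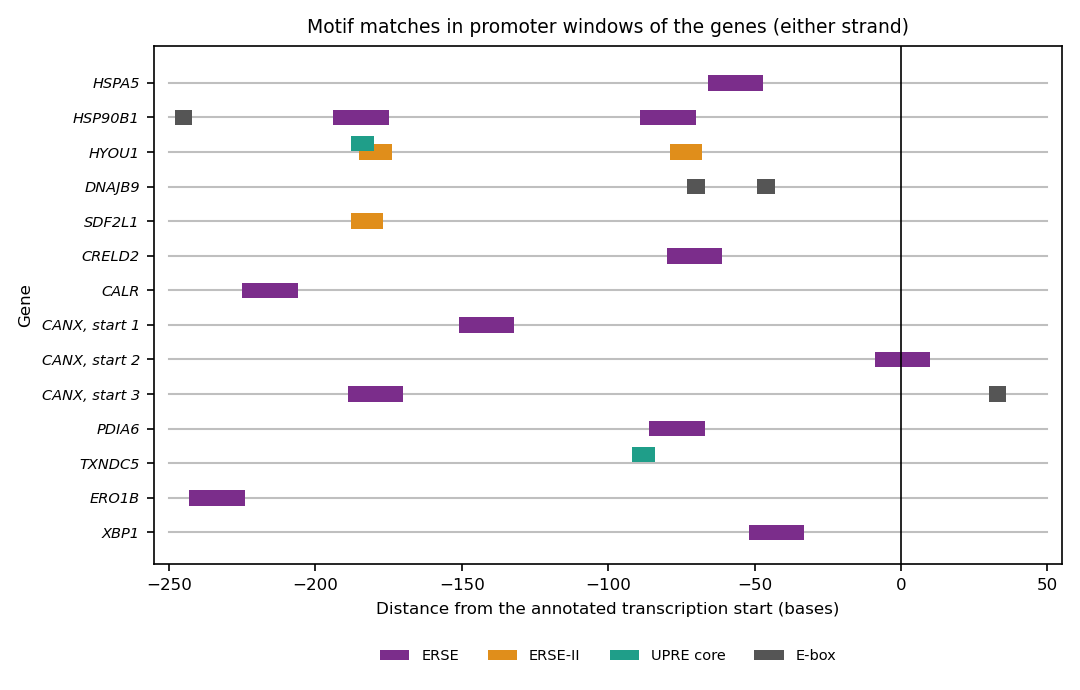
Motif matches in the promoter windows of the members that hold any. The horizontal axis is the distance in bases from an annotated transcription start (0), each grey line is 1 window from 250 bases before to 50 after the start, and coloured bars are matches on either strand; the ERSE of HSPA5 spans bases -66 to -48, and the 3 CANX rows show 1 ERSE seen from 3 starts.

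Over both genotypes, several folding factors were lower with tipifarnib while 1 co-chaperone was higher. The genes that fell were HSP90B1, the lectin CALR, the disulfide isomerases PDIA3, PDIA4, PDIA6 and P4HB, and the co-chaperone SDF2L1. DNAJB9, a J-domain co-chaperone of BiP that keeps IRE1 inactive, rose. The comparison used 6 pairs of tipifarnib and DMSO libraries in a model with the line as a block, and a call is a Benjamini-Hochberg adjusted p under 0.05 in edgeR's quasi-likelihood test over all genes. The 7 members that fell are 21.9% of the 32, beside 6.63% of all genes tested, and the 1 that rose is 3.12%, beside 4.66% of all genes. The members' median log2 change was -0.09, against 0.00 over all genes. Both pairs of a line carry its own response yet enter this model as independent, so its p-values may be too small. In the same fit 1 of 6 general epithelial markers (KRT19, 1.22 ± 0.23) and 1 of 7 ovarian carcinoma markers (PAX8, 0.68 ± 0.18) passed, both higher with tipifarnib. EPCAM of the epithelial list was lower in every pair (18.9 to 9.1 CPM in SKOV3 control cells) except A549 MYC cells (32.9 to 59.3 CPM). PAX8 was higher in every pair, from 249 to 265 CPM in SKOV3 control cells and 3.31 to 8.46 CPM in MDA-MB-231 control cells. The part of these markers in the members' values was not tested. Without MDA-MB-231 none of the 32 passed (87 genes of all passed there). Without SKOV3 5 of the 8 passed (15.6% of the members, beside 7.01% of all genes), with CALR, PDIA3 and P4HB lost. Without A549 6 of the 8 passed, with SDF2L1 and P4HB lost and ERN1 and XBP1 added, which made 25% of the members beside 5.8% of all genes.

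HSP90B1 was lower with tipifarnib in all 6 pairs. In A549 it went from 1092 to 653 CPM in control cells and 999.6 to 909.7 CPM in MYC cells. In SKOV3 it went from 1105 to 642 CPM in control cells and 928 to 691 CPM in MYC cells, and in MDA-MB-231 from 788 to 420.5 CPM in control cells and 833 to 619 CPM in MYC cells. Within each of the 3 lines both tipifarnib libraries lay under both DMSO libraries. The change was -0.57 ± 0.09 (adjusted p = 0.00577), and -0.51 with an adjusted p of 0.119 without MDA-MB-231.

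SDF2L1, a partner of the co-chaperone DNAJB11, had A549 values from 45.4 to 20.6 CPM in control cells and 53.7 to 38 CPM in MYC cells, and MDA-MB-231 values from 34.8 to 17.6 CPM in control cells and 41.1 to 21.2 CPM in MYC cells. SKOV3 stood apart, with 18.4 to 14 CPM in control cells and 17.5 to 18.7 CPM in MYC cells. The gene was thus lower in 5 of 6 pairs and had nearly level values in SKOV3 MYC cells, for a change of -0.65 ± 0.15 (adjusted p = 0.0257). The call was lost without A549 (adjusted p = 0.156) and without MDA-MB-231 (0.289). HSPA5, the central chaperone, did not pass over both genotypes (-0.10 ± 0.19, adjusted p = 0.782), and its values had opposite signs in different lines, as described below by line. The other chaperones and co-chaperones, HYOU1, DNAJB11, DNAJC3, MANF and CRELD2, had changes from -0.30 (CRELD2) to -0.08 (DNAJB11) and none of them passed.

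DNAJB9 was the only member to rise. Its A549 levels went from 13.4 to 18.8 CPM in control cells and 14.2 to 20.2 CPM in MYC cells. In SKOV3 they went from 6.81 to 12.1 CPM in control cells and 6.02 to 11.7 CPM in MYC cells, and in MDA-MB-231 from 8.4 to 19.1 CPM in control cells and 9 to 17.6 CPM in MYC cells. Tipifarnib was higher in all 6 pairs, both genotypes of a line gave similar values, and no line's tipifarnib levels overlapped its DMSO levels. The change was 0.82 ± 0.14 (adjusted p = 0.00616), and 0.71 with an adjusted p of 0.137 without MDA-MB-231.

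The lectin chaperones hold glycoproteins in the folding cycle. CALR, the soluble one, went from 840 to 385 CPM in control cells and 539.6 to 586 CPM in MYC cells in A549. It went from 1784 to 778 CPM in control cells and 1025 to 742 CPM in MYC cells in SKOV3, and from 1032 to 461 CPM in control cells and 976 to 408 CPM in MYC cells in MDA-MB-231. The A549 MYC pair is the 1 of 6 in which CALR was not lower, and the change was -0.85 ± 0.16 (adjusted p = 0.00996). The membrane-bound CANX was lower in 5 of 6 pairs but did not pass (-0.25 ± 0.09, adjusted p = 0.12).

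**Figure D2:**
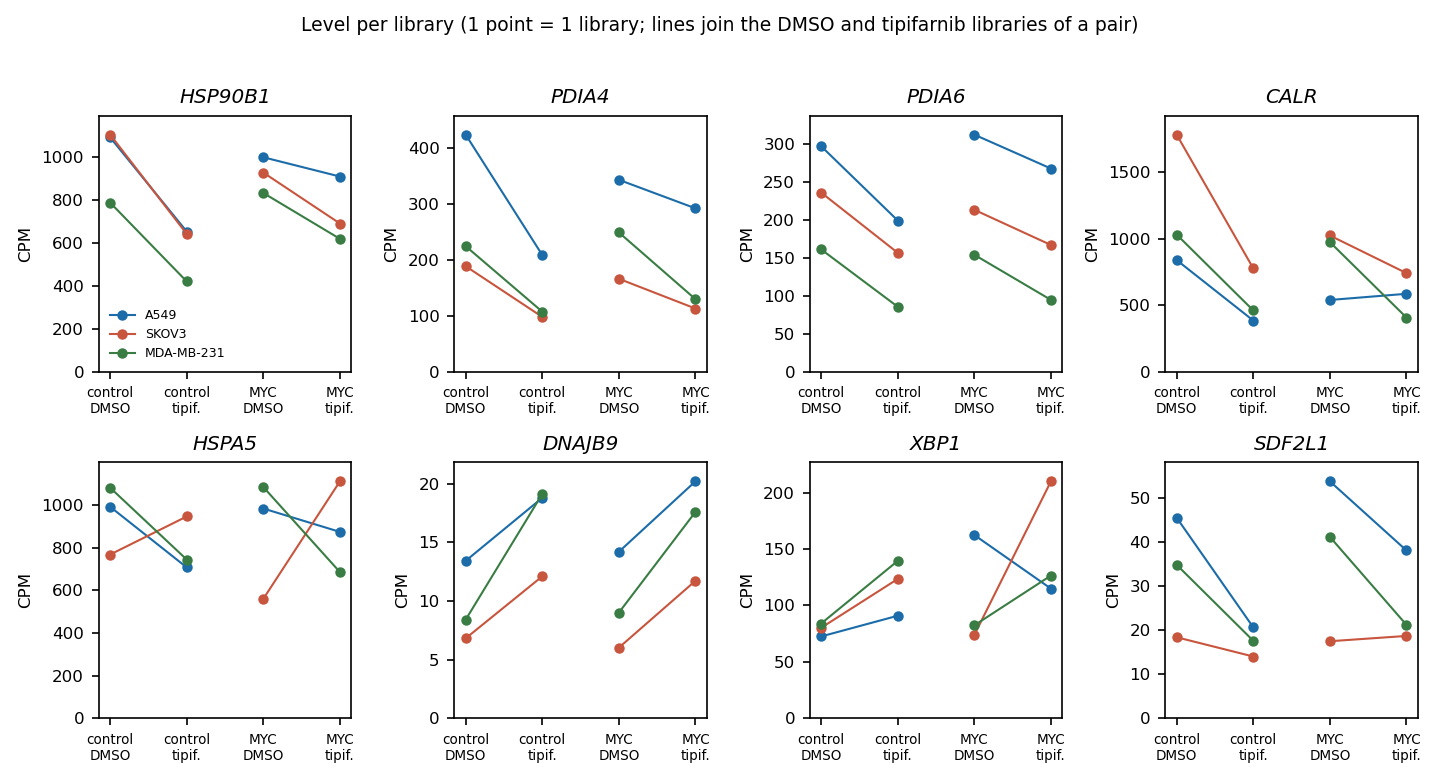
Levels in CPM of 8 members in the 12 libraries. Each point is 1 library, colours are the 3 lines, and segments join the DMSO and tipifarnib libraries of 1 line and genotype; the segments of HSP90B1, PDIA4 and PDIA6 slope down in all 6 pairs, those of DNAJB9 slope up in all 6, and those of HSPA5 slope up in SKOV3 and down in the other lines.

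Of 8 isomerases and oxidases, 4 fell and none rose, with a median of -0.42. PDIA4, a disulfide isomerase, had the smallest adjusted p of all members (-0.80 ± 0.10, adjusted p = 0.00161). Its A549 level went from 424 to 209 CPM in control cells and 344 to 292 CPM in MYC cells. SKOV3 went from 189 to 98.1 CPM in control cells and 166 to 113 CPM in MYC cells, and MDA-MB-231 from 225 to 107 CPM in control cells and 249 to 129.8 CPM in MYC cells. Every pair was lower in tipifarnib, and no line's groups overlapped between treatments.

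PDIA6, which acts on the disulfides of IRE1 and other clients, fell by 0.56 on the log2 scale (SE 0.10, adjusted p = 0.00657). It went from 297 to 199 CPM in control cells and 312 to 267 CPM in MYC cells in A549, from 236 to 156 CPM in control cells and 213 to 167 CPM in MYC cells in SKOV3 and from 161 to 85.4 CPM in control cells and 154 to 94.5 CPM in MYC cells in MDA-MB-231. Its tipifarnib levels lay below its DMSO levels within each line. PDIA3, the isomerase that works with calreticulin and calnexin, changed by -0.53 ± 0.10 (adjusted p = 0.0124), and P4HB, also the beta subunit of prolyl 4-hydroxylase, by -0.48 ± 0.12 (adjusted p = 0.0339). Both were lower in 6 of 6 pairs, although P4HB differed little in MYC cells of A549 (449 and 439 CPM) and of SKOV3 (426 and 417 CPM). The P4HB call was lost whichever line was left out (adjusted p = 0.0759 with A549 out, 0.0787 with SKOV3 out, 0.298 with MDA-MB-231 out), and the last of these fits put its change at -0.29. Annotated exons overlap other genes over 25.2% of PDIA6 (with ATP6V1C2) and 18.9% of PDIA3 (with ELL3), while the strand setting of the counting is not given in the sources used here.

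The oxidases that recharge the isomerases did not pass over both genotypes. ERO1A was at -0.07 ± 0.11 and ERO1B at 0.41 ± 0.19 (adjusted p = 0.727 and 0.192). The proline isomerase PPIB, lower in 5 of 6 pairs, was at -0.36 ± 0.14 (adjusted p = 0.134). The thioredoxin-like isomerase TXNDC5 was at -0.02 ± 0.21. TXNDC5 shares 60.6% of its annotated exon bases with the readthrough gene BLOC1S5-TXNDC5 and had 61 to 209 counts a library, so its values are uncertain.

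None of the 7 degradation members passed over both genotypes, and their median change was 0.15. DERL1, a channel component of retrotranslocation, was higher in all 6 pairs (0.30 ± 0.10, adjusted p = 0.0795, and 0.045 in DESeq2). SEL1L and SYVN1, the scaffold and the ubiquitin ligase of the HRD1 complex, were at 0.30 ± 0.12 and 0.12 ± 0.09. The mannosidase-like EDEM1 was at 0.21 ± 0.14, and the lectin OS9 and DERL2 at -0.03 ± 0.08 and -0.01 ± 0.10. DERL3 was at 0.15 ± 0.45, with 3 to 156 counts a library and 77% of its exon bases shared with SMARCB1 in the annotation.

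The translocon subunits SEC61A1 and SEC61B had log2 differences of -0.14 ± 0.13 and -0.19 ± 0.11 and did not pass. The 3 sensors and XBP1 had a median of 0.39, and none passed. ERN1 was at 0.53 ± 0.24, XBP1 at 0.53 ± 0.23, EIF2AK3 at 0.26 ± 0.15 and ATF6 at 0.13 ± 0.11. ERN1 and XBP1 were higher in 5 of 6 pairs, the exception being A549 MYC cells in both, and both passed without A549 (0.86, adjusted p = 0.0447, and 0.90, adjusted p = 0.0278).

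**Figure D3:**
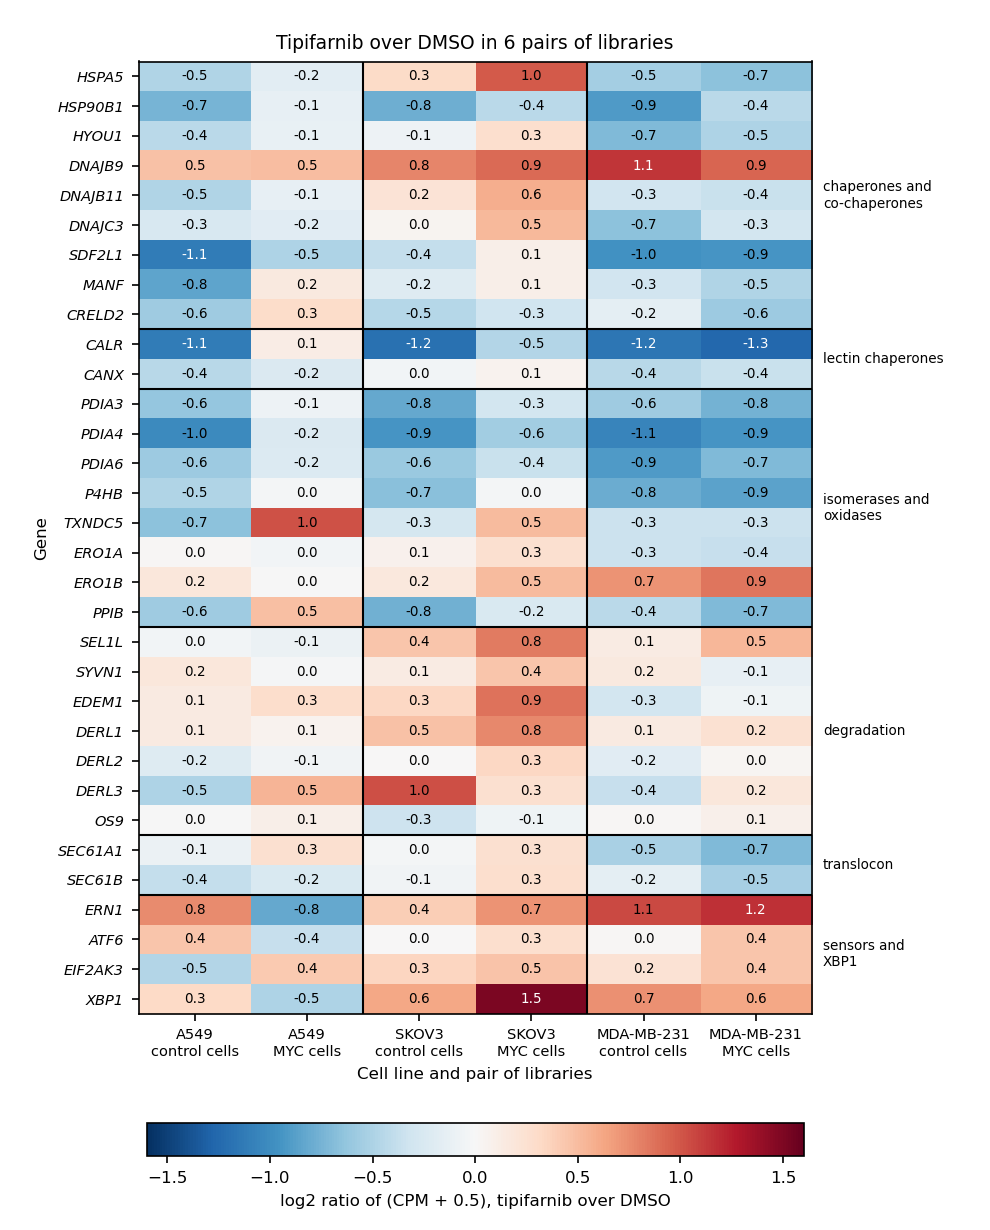
Log2 ratio of tipifarnib to DMSO, each CPM plus 0.5, for the 32 genes (rows, grouped by role) in the 6 pairs of libraries (columns, by line and genotype). Blue cells are lower and red cells higher in tipifarnib; HSP90B1, PDIA3, PDIA4 and PDIA6 are lower in all columns, DNAJB9 is higher in all, and XBP1 has its highest ratio in SKOV3 MYC cells.

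Summed over the 32 members, the level in A549 was 7665 CPM in control cells on DMSO and 5414 CPM on tipifarnib, against 7127 and 6610 CPM in MYC cells. In SKOV3 the same groups had 7764, 5931, 5988 and 6402 CPM. In MDA-MB-231 they had 7665, 5254, 7635 and 5428 CPM. The sum was lower with tipifarnib in 5 of 6 pairs and higher in SKOV3 MYC cells. Members with many counts set this sum. The degradation members together were not lower with tipifarnib in any pair, with A549 at 653 and 658 CPM in control cells and 587 and 602 CPM in MYC cells.

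Promoter letters and the tipifarnib change were set side by side as a description. Of the 8 genes with an ERSE 3 fell (HSP90B1, CALR and PDIA6), with a median of -0.27. Of the 21 with a window but no ERSE 3 fell and 1 rose, with a median of -0.07. Of all genes 6.63% fell and 4.66% rose. The counts are of few genes, and the difference between genes with and without an ERSE was not tested. DNAJB9, the member that rose, has 2 E-boxes in the window printed above and no ERSE. The E-box also stands in HSP90B1, which fell, and in CANX, which did not pass. These 3 genes with an E-box had a median of -0.25.

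The response was then taken within each genotype, as 3 pairs. In control cells 4 members fell and none rose: CALR (-1.16 ± 0.22, adjusted p = 0.0337), PDIA4 (-1.01 ± 0.14, adjusted p = 0.00928), HSP90B1 (-0.81 ± 0.13, adjusted p = 0.0181) and PDIA6 (-0.70 ± 0.14, adjusted p = 0.0348). They are 12.5% of the members, while of all genes 1.49% fell and 0.298% rose. The median over members was -0.23, against 0.00 over all genes. In MYC cells no member passed, while of all genes 0.714% fell and 0.404% rose. There 8 members (25%) had an unadjusted p under 0.05, beside 16.2% of all genes, and the median was 0.01, against -0.01 over all genes. The same 4 genes were at -0.53 ± 0.22, -0.58 ± 0.14, -0.33 ± 0.13 and -0.42 ± 0.13 in MYC cells. DNAJB9 had like values in both, 0.84 ± 0.20 in control cells and 0.80 ± 0.19 in MYC cells, and passed in neither (adjusted p = 0.0655 and 0.0779). Whichever of the 3 lines was left out, no member passed in control cells, and with no low count filter 7 fell there, the 4 with P4HB, PDIA3 and SDF2L1. Those 7 are 21.9% of the members, beside 1.66% of all genes called with that setting.

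Whether the 2 genotypes responded differently was tested as an interaction, the change in MYC cells minus that in control cells. No gene passed, member or other, so the background is 0% of the 17096. At an unadjusted p under 0.05 there were 125 genes and 1 member (HSP90B1, 0.48 ± 0.19, adjusted p = 1 in edgeR), limma-voom called 0 genes, and DESeq2 called 17 genes and no member. The 1 member under an unadjusted 0.05 is 3.12% of the members, beside 0.731% of all genes. The interaction was positive, that is a smaller fall or larger rise in MYC cells, for 27 of the 32 members. It was negative for 15.6% of the members, beside 48.5% of all genes. Genes of the same libraries are not independent replicates, and this count was not tested. The members' median was 0.25, against 0.01 over all genes. CALR (0.63 ± 0.31), TXNDC5 (0.91 ± 0.42), PDIA4 (0.43 ± 0.19) and PPIB (0.45 ± 0.29) were among the larger values, none of them past the threshold. In A549 and SKOV3 CALR and PDIA4 differed more between the treatments in control than in MYC cells, while in MDA-MB-231 the CALR levels with tipifarnib were about as far below DMSO in both (the values above).

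Within single lines, each with 2 pairs, the members divided differently. This model lets each line have its own MYC and tipifarnib effects and takes the interaction within lines as its error. In MDA-MB-231 13 members fell and 3 rose, 40.6% and 9.38% of the members beside 12.1% and 10.6% of all genes. In SKOV3 3 fell and 6 rose, 9.38% and 18.8% beside 7.48% and 6.57% of all genes. In A549, at the lower dose, 1 fell and none rose, 3.12% of the members, while of all genes 4.47% fell and 3.56% rose. With no low count filter 14 members passed in SKOV3 and 4 in A549, where CALR, HSP90B1 and PDIA4 joined SDF2L1. These are 43.8% and 12.5% of the members, beside 9.89% and 7% of all genes in that fit. The members' medians were -0.37 in MDA-MB-231, 0.13 in SKOV3 and -0.11 in A549, against 0.00, -0.02 and 0.00 over all genes.

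In MDA-MB-231 the falling genes took in every role except degradation and the sensors. They were HSPA5, HSP90B1, HYOU1, DNAJC3, SDF2L1, CALR, CANX, PDIA3, PDIA4, PDIA6, P4HB, ERO1A and SEC61A1, with changes from -1.21 (CALR) to -0.35 (ERO1A). HYOU1, the exchange factor and chaperone that works with BiP, went from 199 to 121 CPM in control cells and 231 to 164 CPM in MYC cells, a change of -0.60 ± 0.13 (adjusted p = 0.0115). SEC61A1, the channel-forming subunit, went from 352 to 245 CPM in control cells and 329 to 201 CPM in MYC cells (-0.62 ± 0.13, adjusted p = 0.00941). Both had tipifarnib levels below both DMSO levels.

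The 3 members that rose in MDA-MB-231 were DNAJB9, ERN1 and ERO1B. DNAJB9 changed by 1.07 ± 0.17 (adjusted p = 0.00258). ERN1, which encodes IRE1, went from 13.8 to 29.2 CPM in control cells and 20.9 to 47.5 CPM in MYC cells (1.14 ± 0.30, adjusted p = 0.0226). The oxidase ERO1B went from 11.4 to 19.1 CPM in control cells and 14.7 to 27.1 CPM in MYC cells (0.81 ± 0.17, adjusted p = 0.00958), whereas its relative ERO1A fell (-0.35 ± 0.11, adjusted p = 0.0428), a call lost with no low count filter. XBP1 was at 0.67 ± 0.22 and just missed the threshold (adjusted p = 0.0542).

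In SKOV3 the rising members were the sensor target XBP1, the chaperones HSPA5 and DNAJB9, and the degradation genes SEL1L, EDEM1 and DERL1. XBP1 went from 80.2 to 124 CPM in control cells and 73.9 to 210 CPM in MYC cells (1.07 ± 0.22, adjusted p = 0.013). SEL1L went from 98.4 to 134 CPM in control cells and 70.6 to 127 CPM in MYC cells (0.64 ± 0.14, adjusted p = 0.0141), and EDEM1, which directs misfolded glycoproteins to degradation, from 86.3 to 109 CPM in control cells and 62.5 to 115 CPM in MYC cells (0.61 ± 0.14, adjusted p = 0.0214). Both tipifarnib levels of each of these genes lay above both DMSO levels, with the wider gap in MYC cells. DERL1 changed by 0.62 ± 0.12 (adjusted p = 0.00756). HSP90B1, PDIA4 and PDIA6 fell in SKOV3 (-0.61 ± 0.17, -0.75 ± 0.18 and -0.47 ± 0.13; HSP90B1 did not pass there with DESeq2 size factors), and PDIA3 and CALR were at -0.56 ± 0.16 and -0.83 ± 0.26 with adjusted p of 0.0502 and 0.0595.

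In A549 SDF2L1 alone passed (-0.81 ± 0.18, adjusted p = 0.0277). PDIA4 was at -0.63 ± 0.18 (adjusted p = 0.0621) and HSP90B1 at -0.44 ± 0.17 (adjusted p = 0.152). XBP1 and ERN1 had differences of opposite sign in the 2 A549 pairs. XBP1 went from 72.5 to 90.9 CPM in control cells and 162 to 115 CPM in MYC cells, and ERN1 from 18.3 to 31.2 CPM in control cells and 54.4 to 30.6 CPM in MYC cells. Their highest A549 level was in MYC cells with DMSO, and the fitted A549 differences of both did not pass (-0.09 ± 0.22 and -0.05 ± 0.30).

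**Figure D4:**
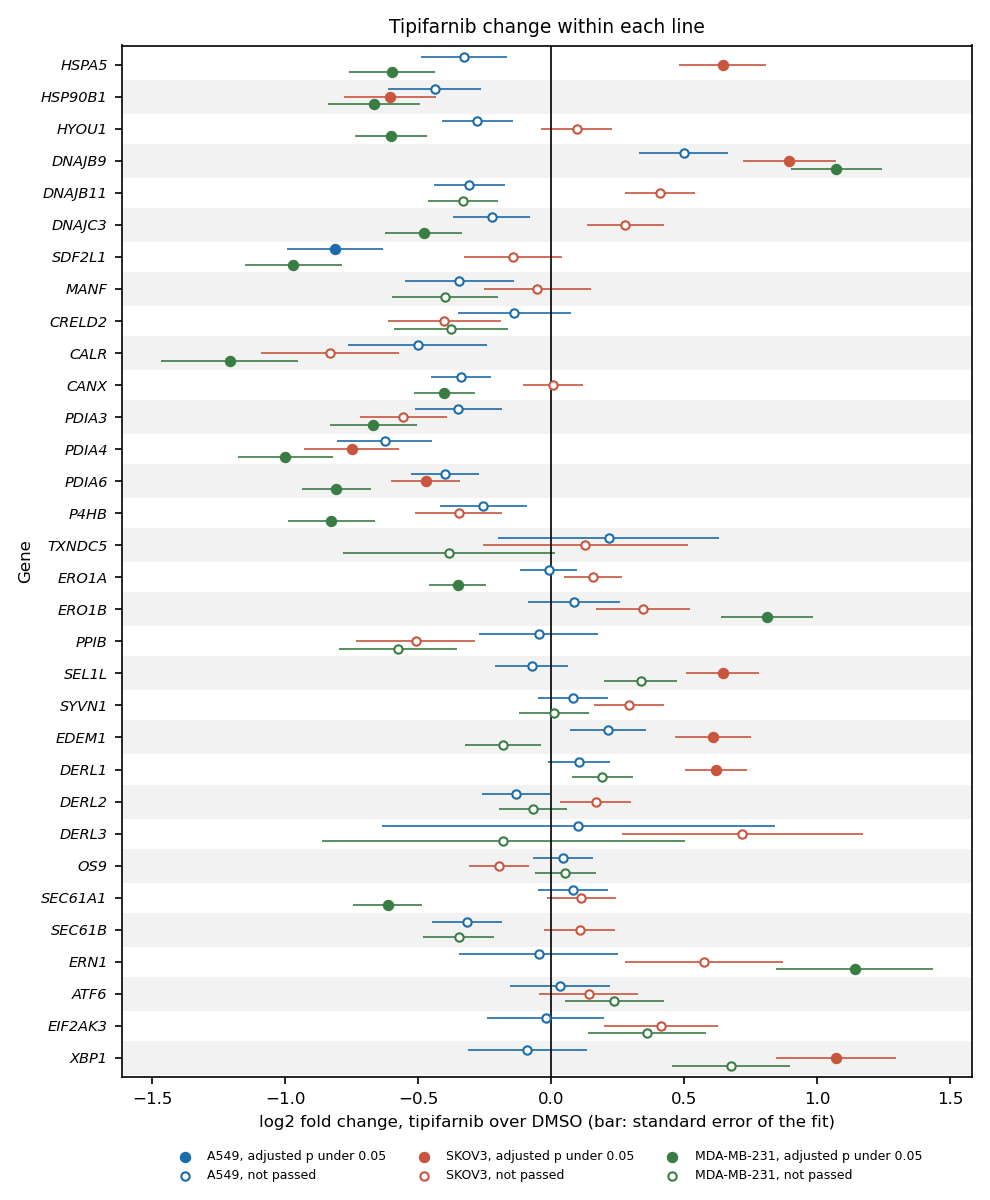
Log2 fold change of tipifarnib over DMSO within each line for the 32 genes. Points are fitted values from 2 pairs, bars are standard errors of the fit, colours are lines, and filled points passed an adjusted p under 0.05; HSPA5 lies at 0.64 in SKOV3 and below 0 in the other lines, while HSP90B1, PDIA4 and PDIA6 lie below 0 in all 3.

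The tipifarnib response differed between the 3 lines for 1 member, HSPA5 (adjusted p = 0.0257), which is 3.12% of the members beside 7.69% of all genes. With no low count filter 12 members differed, HSPA5 among them, which is 37.5% beside 9.65% of all genes. HSPA5 went from 767 to 945 CPM in control cells and 559.7 to 1110 CPM in MYC cells in SKOV3, where it rose (0.64 ± 0.16, adjusted p = 0.0287). It went from 1080 to 743 CPM in control cells and 1083 to 685 CPM in MYC cells in MDA-MB-231, where it fell (-0.60 ± 0.16, adjusted p = 0.0262). In A549 it went from 991 to 707 CPM in control cells and 982 to 873 CPM in MYC cells, which did not pass (-0.33 ± 0.16, adjusted p = 0.244). Tipifarnib levels lay above DMSO levels in SKOV3 and below them in both other lines, without overlap. The difference between SKOV3 and MDA-MB-231 was at 1 dose, 20 µM.

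The next members by this test were DNAJB11, a BiP co-chaperone (adjusted p = 0.0536), SEC61A1 (0.0539) and EDEM1 (0.0838). DNAJB11 was at 0.41 ± 0.13 in SKOV3, -0.33 ± 0.13 in MDA-MB-231 and -0.31 ± 0.13 in A549. For HSP90B1, PDIA4 and CALR the adjusted p of a difference between lines was 0.772, 0.544 and 0.397, which does not show that the lines responded alike.

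MYC itself was set against the control vector over both treatments, as 6 pairs. None of the 32 members passed, while of all genes 4.5% were higher in MYC cells and 2.84% lower. DESeq2 and limma-voom also called no member. An unadjusted p under 0.05 was found for 3 members (9.38%), fewer than the 24.3% of all genes. These were DNAJC3, the PERK inhibitor p58IPK (-0.34 ± 0.12, adjusted p = 0.123), OS9 (-0.21 ± 0.08, adjusted p = 0.124) and ERN1 (0.57 ± 0.24, adjusted p = 0.182). DNAJC3 and OS9 were lower in MYC cells in 6 of 6 pairs. The members' median was 0.06, against 0.00 over all genes. Of the marker lists, 3 of 5 mesenchymal markers were lower in MYC cells in the same fit (FN1, SPARC and CDH2, from -2.77 to -1.12). Of 6 general epithelial markers 1 passed, EPCAM, which was higher (1.44). KRT19 of that list was lower in MYC cells with DMSO in each line, as in SKOV3 (303 to 144 CPM). With tipifarnib KRT19 was higher in A549 MYC cells (304 to 371 CPM) and lower in those of the other lines. The part of these markers in the members' values was not tested.

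In DMSO the DNAJC3 level of A549 was 65.8 CPM with the control vector and 52.8 with MYC, that of SKOV3 79.6 and 48.7, and that of MDA-MB-231 91.2 and 65.6 CPM. With tipifarnib the same lines had 55 and 46.3, 81.7 and 70, and 57.6 and 53.4 CPM. The gap between genotypes was wider in DMSO in each line, and the 2 genotypes overlapped across lines.

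Taken in each treatment, with 3 pairs, MYC gave no call among all 17096 genes in DMSO and none in tipifarnib (background 0% in both). At an unadjusted p under 0.05 there were 2667 genes (15.6% of all) and 2 members (6.25%) in DMSO. In tipifarnib there were 2096 genes (12.3% of all) and 4 members (12.5%), near the share of all genes. With no low count filter 402 genes passed in DMSO and 99 in tipifarnib, none of them a member. In the main edgeR fit, which has the filter, MYC itself had adjusted p of 0.056 in DMSO and 0.121 in tipifarnib. The members' medians were -0.09 in DMSO and 0.15 in tipifarnib, against 0.01 and 0.00 over all genes. The comparisons of MYC in tipifarnib and of tipifarnib in MYC cells share libraries, as do those in DMSO and in control cells.

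Within A549, 2 members were higher in MYC cells, 6.25% beside 9.94% of all genes, and none was lower, beside 7.8% of all genes. XBP1 was at 72.5 and 90.9 CPM in control cells and at 162 and 115 CPM in MYC cells (0.75 ± 0.22, adjusted p = 0.0457). ERO1A was at 139 and 141 CPM in control cells and at 198 and 192 CPM in MYC cells (0.47 ± 0.11, adjusted p = 0.0158). Neither gene's genotypes overlapped. With DESeq2 size factors ERO1A passed and XBP1 did not, 3.12% of the members beside 17.2% of all genes. With no low count filter ERN1 and SDF2L1 passed as well, which made 12.5% of the members beside 11.3% of all genes.

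In SKOV3 no member passed, while of all genes 4.58% were higher and 4.5% lower, and 4 members (12.5%) had an unadjusted p under 0.05, beside 23.7% of all genes. In MDA-MB-231 none passed either, beside 0.813% and 0.831% of all genes, again with 4 members under an unadjusted 0.05, beside 18.3% of all genes. With no low count filter 3 members passed in SKOV3 (CALR, DERL3 and DNAJC3) and 1 in MDA-MB-231 (ERN1). These are 9.38% and 3.12% of the members, beside 7.37% and 3.95% of all genes. For a difference of the MYC effect between lines no member passed, beside 3.07% of all genes, and 2 members, ERO1A and ERO1B, had an unadjusted p under 0.05 (adjusted p = 0.246 and 0.164), 6.25% of the members beside 16.2% of all genes. ERO1B was at -0.48 ± 0.18 in SKOV3 and 0.43 ± 0.17 in MDA-MB-231.

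**Figure D5:**
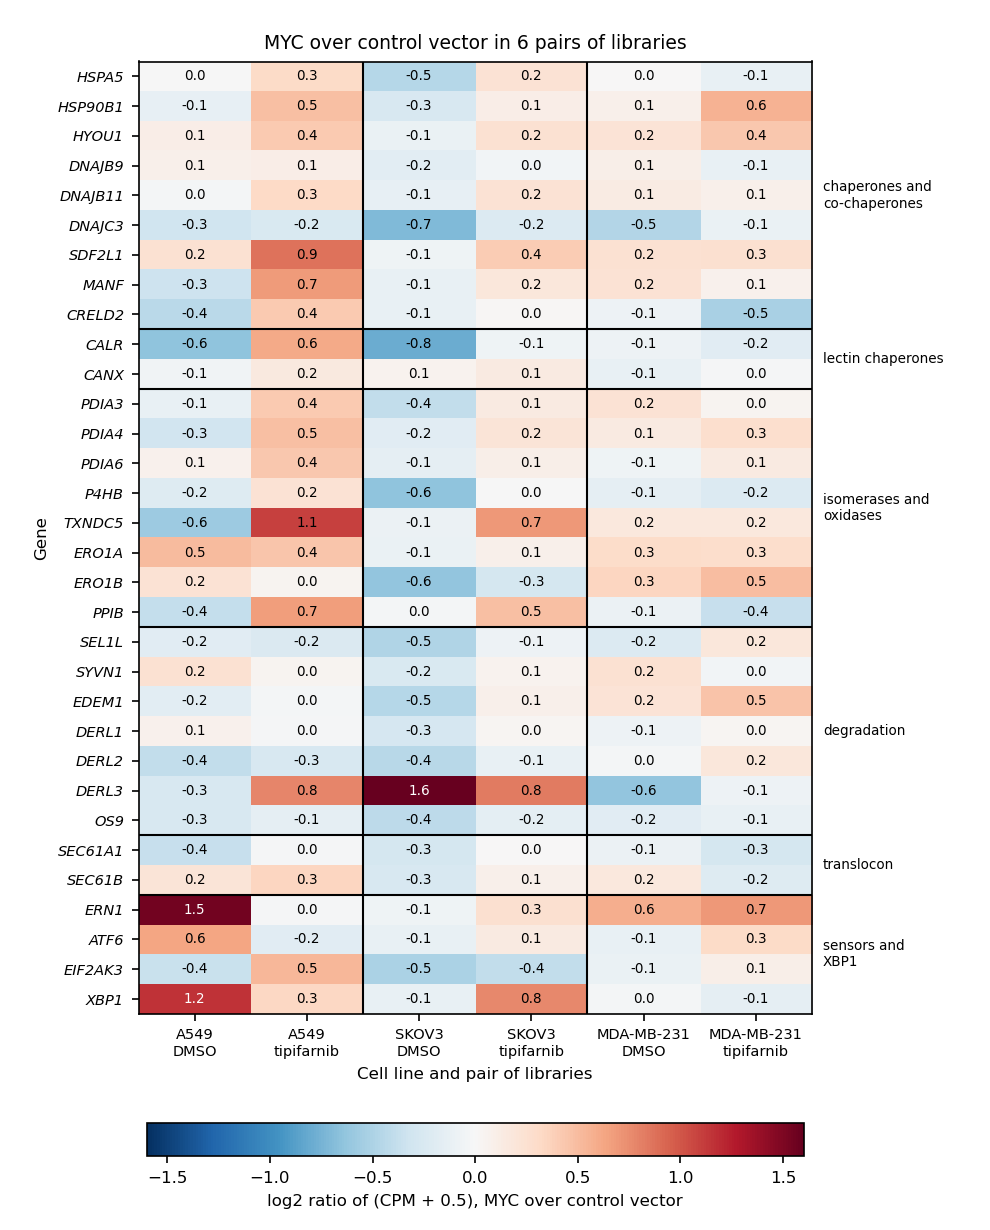
Log2 ratio of MYC to control cells, each CPM plus 0.5, for the 32 genes (rows, grouped by role) in 6 pairs of libraries (columns, by line and treatment). Red cells are higher and blue cells lower in MYC cells; DNAJC3 and OS9 are lower in all columns, and no gene is higher in all of them.

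Levels of the members between lines were compared in the model of line and group, and 24 of 32 differed, 75% beside 79.7% of all genes. The highest median level of a member was in A549 for 15 genes, in MDA-MB-231 for 10 and in SKOV3 for 7, and the lowest was in SKOV3 for 18. DERL3 had the widest span, with medians of 0.324 CPM in A549, 0.387 in MDA-MB-231 and 4.73 in SKOV3, where all 4 libraries lay above all others. Its A549 and MDA-MB-231 values overlapped. The gene passed the low count filter mainly through SKOV3, so its test between lines cannot serve as separate support, and its p is left out. It had 3 to 156 counts a library, and 77% of its exon bases are shared with SMARCB1 in the annotation.

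Among the isomerases PDIA4 had medians of 140 CPM in SKOV3, 177 in MDA-MB-231 and 318 in A549 (adjusted p = 2.35e-05), with overlap between SKOV3 and MDA-MB-231 and between MDA-MB-231 and A549. PDIA6 had 124 CPM in MDA-MB-231, 190 in SKOV3 and 282 in A549 (adjusted p = 3.67e-05). In the degradation group DERL2 had 26.5 CPM in SKOV3, below all libraries of MDA-MB-231 at 53.3 and A549 at 57.9, which overlapped each other (adjusted p = 2.13e-05). OS9 had 77.2 CPM in MDA-MB-231, below all libraries of SKOV3 at 130 and A549 at 162, which overlapped (adjusted p = 1.36e-05).

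The 8 members whose levels did not pass between lines were HSPA5, PDIA3, DNAJC3, EDEM1, SYVN1, XBP1, ERN1 and SEC61B. HSPA5 had medians of 856 CPM in SKOV3, 912 in MDA-MB-231 and 928 in A549, which overlapped (adjusted p = 0.95). XBP1 had medians of 102 to 105 CPM in the 3 lines (adjusted p = 0.934). ERN1 ranged from a median of 17.1 CPM in SKOV3 to 30.9 in A549 (adjusted p = 0.0578).

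Genes of the same pathways outside the 32 were counted by lists. In the PERK and ATF4 branch 5 of 17 genes rose with tipifarnib over both genotypes and none fell, with a median of 1.25. Of all genes 4.66% rose and 6.63% fell in that comparison. ATF4, the factor whose translation PERK favours, changed by 0.68 ± 0.16 (adjusted p = 0.0275), from 218 to 530.4 CPM in control cells and 361 to 793 CPM in MYC cells in SKOV3 and from 386 to 627 CPM in control cells and 482 to 714 CPM in MYC cells in MDA-MB-231. In A549 it went from 322 to 456 CPM in control cells and 560.4 to 516 CPM in MYC cells, so that 5 of the 6 pairs were higher. The stress protein gene NUPR1 changed by 2.41 ± 0.59 (adjusted p = 0.0295) and CEBPB, a partner of ATF4 family factors, by 1.13 ± 0.28 (adjusted p = 0.0299). The other two that rose were DDIT3 and ASNS. Within lines 12 of the 17 rose in SKOV3, 8 rose and 1 fell in MDA-MB-231, and none rose and 1 fell in A549. Of all genes 6.57% rose in SKOV3, 10.6% rose and 12.1% fell in MDA-MB-231, and 3.56% rose and 4.47% fell in A549. A difference between the lines passed for 8 of the 17, beside 7.69% of all genes.

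Other lists had small medians with tipifarnib over both genotypes. Their counts stand beside 4.66% of all genes rising and 6.63% falling, and counts of 1 to 3 genes a list are near these shares. Of 28 further degradation genes 1 rose (HERPUD1, which joins the HRD1 complex, 0.61 ± 0.13, adjusted p = 0.0193) and 1 fell (the segregase VCP, -0.43 ± 0.09, adjusted p = 0.0178). A list of further disulfide and proline isomerases also holds genes that are not isomerases, such as MESD. Of its 31 genes tested 3 fell, TMX1, FKBP14 and MESD (-0.39 ± 0.09, -0.46 ± 0.11 and -0.44 ± 0.11), and none rose. Of 25 translocation genes 2 fell, SRP9 and SPCS2 (-0.43 ± 0.09 and -0.32 ± 0.08). Of 27 genes of N-glycosylation 5 fell and none rose, among them the glucosidase subunit GANAB, whose product trims glycans for the lectin chaperones (-0.44 ± 0.08, adjusted p = 0.01), ALG14 (-0.73 ± 0.16) and RPN2 (-0.41 ± 0.09), beside MAGT1 and DDOST. Of 13 further stress sensors and bZIP factors none passed. The 2 with the smallest p were TMBIM6 (0.26 ± 0.09, adjusted p = 0.0954) and RTCB (-0.19 ± 0.07, adjusted p = 0.138), the ligase that joins spliced XBP1.

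A list of heat shock genes, mostly cytosolic but with the mitochondrial HSPD1, moved in both directions with tipifarnib. Of its 21 genes 4 rose and 2 fell, beside 4.66% and 6.63% of all genes. HSPA1B changed by 1.77 ± 0.31 (adjusted p = 0.00746), DNAJB1 by 0.53 ± 0.10 (adjusted p = 0.0106) and the small heat shock gene HSPB8 by 1.24 ± 0.25 (adjusted p = 0.0134). HSPA1B has a near-identical neighbour, HSPA1A, so its counts are uncertain. HSPA1A rose too, and HSPA4 and CCT2 fell. In MYC cells against control cells 4.5% of all genes were higher and 2.84% lower. Of the 31 genes on the list of further isomerases 5 were higher and none lower. They were QSOX2, PRDX4 and PDIA5 (0.54 ± 0.10, 0.45 ± 0.09 and 0.59 ± 0.11), beside FKBP14 and TMX2, and QSOX2 and PRDX4 are not isomerases. ALG3 and DPAGT1 of N-glycosylation (0.61 ± 0.11 and 0.34 ± 0.08) and the heat shock genes HSPD1 and AHSA1 (0.61 ± 0.12 and 0.38 ± 0.09) were also higher. TRAM2 of translocation was lower (-0.64 ± 0.11). No gene passed among the PERK and ATF4 branch (smallest p PPP1R15B, 0.28 ± 0.08, and ATF4, 0.48 ± 0.16), the further degradation genes (AUP1, 0.35 ± 0.10, and NGLY1, 0.30 ± 0.09) or the further stress sensors and bZIP factors (CREB3L2, -0.45 ± 0.13, and CREB3, -0.39 ± 0.12).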

How the data were processed

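RNA of 12 cultures was measured. The library kit was SMARTER mRNA-Seq, per the labels' protocols. The submitters' processing notes name TopHat2, HTSeq, DESeq2 and hg19, with no versions. The deposited values are raw HTSeq counts per gene made by the authors, whole numbers for 57820 genes. The 5 HTSeq summary rows, 17.5% to 19.9% of each library, were left out.

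Genes were filtered with filterByExpr (minimum count 10), scaled with TMM and tested with the edgeR 4.0.16 quasi-likelihood test (R 4.3.3) and Benjamini-Hochberg adjustment over all 17096 genes. Comparisons over lines used line and group (6 residual degrees of freedom, common biological coefficient of variation 0.245). Comparisons within or between lines used MYC and tipifarnib effects fitted per line (3 degrees of freedom, 0.135). Line was the block because the pairs are libraries of the same line. With group means removed, such libraries correlated across genes with r of 0.829 to 0.922 (18 pairs), against -0.551 to -0.307 for other lines (36 pairs), and genes are not independent replicates. Each group mean comes from 3 libraries, 1 per line, so removing it pushes r between lines below 0 in advance. The values describe the lines' differing levels and do not test the block. In all 16 comparisons were made, with standard errors from the fit, and CPM use TMM-scaled library sizes. Fits were tested on simulated data. Alternatives were DESeq2 size factors, DESeq2 1.42.0, limma-voom (limma 3.58.1), no low count filter, no replicate block, each line left out, and an interaction fit with each line's own effects.

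All members are named, as are up to 3 genes with the smallest p that passed from each pathway list, or the 2 with the smallest p where none passed. Members and lists were chosen with earlier results of these data known. Promoter sequences are RefSeq's on GRCh38.p14, another build than that of the counts. Exon overlaps come from GENCODE v29 on GRCh38. Where overlapping genes share exons, HTSeq may lose or misassign reads, and the strand setting is not given in the sources used here.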

Additional observations from a re-analysis of the deposited data

Results flagged for a closer look

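HSPA5 was looked at again because its response to tipifarnib differed between the lines (adjusted p = 0.0257 in edgeR's quasi-likelihood test that the 3 lines' changes are equal). It was higher with tipifarnib in both SKOV3 pairs and lower in both pairs of A549 and of MDA-MB-231. The change was 0.64 ± 0.16 in SKOV3, -0.33 ± 0.16 in A549 and -0.60 ± 0.16 in MDA-MB-231. Genes of the PERK and ATF4 branch also differed between lines, for 8 of 17 genes beside 7.69% of all genes, with medians of 2.10 in SKOV3, 1.31 in MDA-MB-231 and 0.16 in A549. Their part in the HSPA5 result was not tested. With DESeq2 size factors HSPA5 was again the 1 member that differed between lines (3.12% of the members, beside 7.79% of all genes). With no low count filter 12 members did, HSPA5 among them (37.5%, beside 9.65% of all genes).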

How the results depend on the processing

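DERL3 (3 to 156 counts a library) and TXNDC5 (61 to 209) are imprecise at this depth. Of the members called, fewer or more passed under some settings. Without the replicate block, that is without pairing by line, 0 passed for tipifarnib over both genotypes (8 with the block) and 0 in control cells (4 with it), and no other comparison over lines had members to lose. With each line left out in turn, from 0 to 8 passed over both genotypes (0 without MDA-MB-231, 5 without SKOV3, 8 without A549, of which 6 are among the 8 with all lines) and 0 in control cells each time. Over both genotypes 7.01% of all genes passed without SKOV3 and 5.8% without A549. Each such fit leaves out 1 line, and the cause of the differences between these counts was not tested. With no low count filter more members passed: 7 for tipifarnib in control cells, 4 in A549, 14 in SKOV3 and 12 for a difference of the tipifarnib response between lines. Of all genes 1.66%, 7%, 9.89% and 9.65% passed there. The same setting gave 4 members for MYC in A549, 3 in SKOV3, 1 in MDA-MB-231 and 1 for a difference of the MYC effect between lines. Of all genes 11.3%, 7.37%, 3.95% and 5.56% passed there. With DESeq2 size factors 1 passed for MYC in A549, beside 17.2% of all genes. The 8 members called for tipifarnib over both genotypes also passed with DESeq2 size factors, DESeq2, limma-voom and no low count filter, where the count was 8 or 9. Of all genes 10.9%, 19.1%, 13.6% and 6.23% passed in these settings. DESeq2 size factors, DESeq2 and limma-voom, where run, and leaving out a line gave 0 members for the interaction and for MYC over both treatments.

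Signs turned only for members that were not called. With a line left out the tipifarnib change ran from -0.46 to 0.17 for HSPA5 (0.032 without A549), from -0.32 to 0.063 for DNAJB11 (0.048 without A549), from -0.35 to 0.038 for DNAJC3, from -0.096 to 0.058 for DERL2 (0.029 without MDA-MB-231, 0.005 with no low count filter), from -0.026 to 0.41 for DERL3, from -0.063 to 0.053 for OS9, from -0.18 to 0.081 for ERO1A, from -0.11 to 0.17 for TXNDC5 and from -0.26 to 0.11 for SEC61A1. The MYC change ran from -0.040 to 0.041 for HSPA5 (-0.008 in limma-voom), from -0.004 to 0.14 for PDIA3, from -0.018 to 0.059 for CANX, from -0.061 to 0.027 for DNAJB9 (0.007 without the replicate block, 0.002 in limma-voom) and from -0.16 to 0.11 for EDEM1. It ran from -0.23 to 0.023 for EIF2AK3, from -0.092 to 1.02 for DERL3, from -0.18 to 0.29 for ERO1B (-0.020 without A549), from -0.024 to 0.18 for PPIB and from -0.037 to 0.12 for SEC61B.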
